A study of Mus musculus with 18 samples.

Results

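The genes described are 10 members of the TNF superfamily: the ligands Tnf, Tnfsf9, Tnfsf10, Tnfsf12 and Tnfsf13b, and the receptors Tnfrsf1a, Tnfrsf1b, Fas, Tnfrsf11a and Ltbr. They were picked by gene name from a table of 21734 protein-coding genes, in which 9 of the 10 have a row. Tnfsf12, the ligand TWEAK, was not analysed here. All 9 genes with a row passed the filter on low counts, as did 11357 genes in all. The RNA was that of BMDMs, macrophages cultured from mouse bone marrow for 8 to 9 days with the growth factor M-CSF at 10 ng/ml.

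Wild-type (WT) mice, mice lacking mir-146a (KO) and mice homozygous for the 3′F allele were compared, 3 mice of each genotype. In 3′F the mature miR-146a keeps its seed, the bases that pair with targets first, while later bases of the strand were exchanged with those of the opposite strand. By the labels all mice were of a mixed 129/B6 background and 6 to 7 months old, and both alleles were made by targeting embryonic stem cells. Cultures of each genotype received fresh medium without LPS (resting) or with LPS at 1 ng/ml, and were harvested after 16 h, which gives 6 groups of 3 libraries. The table holds no row for miR-146a, so the change made in each genotype was not checked in these counts.

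TNF superfamily ligands are membrane proteins that act as trimers, at the cell surface or after a protease has cut them free, and bind receptors of a matching family. Receptors with a death domain, such as Tnfrsf1a and Fas, can assemble complexes that activate NF-κB or caspases, while receptors without one, such as Tnfrsf1b, Tnfrsf11a and Ltbr, recruit TRAF adaptors. Macrophages are a main source of Tnf after contact with LPS, a part of the outer membrane of Gram-negative bacteria that Toll-like receptor 4 senses. miR-146a is an NF-κB-induced microRNA known for repressing adaptors of that pathway.

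The mature strands show what differs between the genotypes and are given with the seed, bases 2 to 8, in capitals. The WT strand lies on chromosome 11 at 43374435 to 43374456 of GRCm38.p6, minus strand, and is taken from RefSeq, while the 3′F strand is that of the designed mimic of the study. The mimic is shown without its terminal deoxythymidines and so has 20 bases against the 22 of the WT strand. The allele itself was designed to keep the WT bases at that end. Over the bases shown for both, the strands differ at 8 positions, from 13 to 20, counted from the 5′ end.
miR-146a-5p WT: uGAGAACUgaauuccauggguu
miR-146a-5p 3′F: uGAGAACUgaauaagugucc

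Matches to the seed were sought in the longest annotated 3′ UTR of each gene (GRCm38), since WT and 3′F miR-146a share the seed. KO cells lack miR-146a, but the gene of the related miR-146b, which has the same seed, is intact in them. Of the 9 genes, 3 hold a match of at least 7 bases and 6 hold none, against 20.7% of 11261 tested genes with an annotated 3′ UTR. Tnfrsf11a holds 3 matches, and Tnfsf10 and Tnfsf13b hold 1 each. In the lines below the capitals mark the match, either to bases 2 to 8 of the seed or to bases 2 to 7 followed by A.
Tnfrsf11a, chr1:105846541-105846565: gtacacttatcctGTTCTCAttggt
Tnfrsf11a, chr1:105846658-105846682: aagtaggatgacAGTTCTCtctctc
Tnfrsf11a, chr1:105847297-105847321: cctcctgactgaAGTTCTCctgtgg
Tnfsf10, chr3:27339215-27339239: gatttgaacccggGTTCTCAtgctt
Tnfsf13b, chr8:10038898-10038922: acctataacagggGTTCTCAaattt
Every one of these windows is on the plus strand. A match is a description of letters and was not tested as a site.

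Total counts ran from 4071084 to 19818043 per library, lowest in resting 3′F replicate 3. Macrophage markers (8 genes, among them Adgre1, Csf1r and Lyz2) each exceeded 1 CPM (counts per 1000000 of TMM-scaled library size) in every library. Their sum differed between KO and WT without overlap: it was 60500 to 62400 CPM in resting KO and 31800 to 47800 CPM in resting WT, and with LPS 71200 to 87900 CPM in KO and 45500 to 59900 CPM in WT. Resting and LPS 3′F had 42700 to 62300 and 50500 to 60400 CPM, which overlapped WT in each state and KO at rest. Of the 8 markers edgeR called Csf1r and Fcgr1 higher in resting KO than in WT (0.80 and 1.79 on the log2 scale, adjusted p = 0.0122 and 0.0321) and Itgam lower (−0.70, adjusted p = 0.0082). The part of this shift in the KO results below was not tested. Markers of B cells, T cells, NK cells, dendritic cells and stromal cells each summed to at most 11.4 CPM in any library, and Cd3e and Gzma had 0 counts in each. Of these markers 1 of T cells, 1 of NK cells and 1 of stromal cells passed the filter. T cell markers summed to 9.02 and 10.9 CPM in resting KO replicates 1 and 2 and to 0.898 CPM in replicate 3. Of 6 neutrophil markers 4 passed the filter, with a sum of 12.4 to 65.8 CPM over all libraries, and Ly6g had at most 2 counts. Of 6 osteoclast markers 4 passed, with a sum of 182 to 479 CPM, and Oscar had at most 1 count. Resting KO replicate 3 stood apart from its group: it had 11700 CPM summed over 10 interferon-response genes (such as Ifit1, Mx1 and Isg15, a list chosen after the values were seen), while resting KO replicates 1 and 2 had 548 and 383 CPM, the other resting libraries 88.1 to 205 CPM and the LPS libraries 2800 to 16700 CPM. Its osteoclast markers were the highest, at 479 CPM against 182 to 301 CPM elsewhere, and its neutrophil markers stood at 52.4 CPM. The part that these cells or transcripts have in the results below was not tested, and the main counts and the calls of the 9 genes that use resting KO are also given without this library. Resting 3′F replicate 3, the shallowest, had the highest sum of neutrophil markers. In such bulk RNA, fewer cells of a type and less RNA per cell cannot be told apart.

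Levels between genes were compared per kb of exon. In resting WT the receptor Tnfrsf1b had the highest level, at 103 ± 16.8 CPM per kb (SD, n = 3), followed by Tnfrsf1a at 42.4 ± 6.22, Tnfrsf11a at 37.1 ± 4.79, Ltbr at 35.5 ± 1.73 and Tnf at 29.1 ± 7.09. From Tnfrsf1a to Tnf each gene differed from the next in this order by less than the larger of their SDs. Tnfsf9 and Fas were lower, at 4.79 ± 0.66 and 4.18 ± 0.75 CPM per kb, and also lay within the larger SD of each other, with Tnfsf13b and Tnfsf10 lowest, at 0.51 ± 0.13 and 0.11 ± 0.07. Tnfrsf1b kept the first place in each of the 6 groups. With LPS Tnf was second in each genotype, at 91.4 ± 5.19 CPM per kb in WT, 127 ± 32.9 in KO and 112 ± 28.9 in 3′F. In 3′F it was also second at rest, at 40.5 ± 1.27, with Tnfrsf11a close behind at 39.6 ± 12.6.

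**Figure D1:**
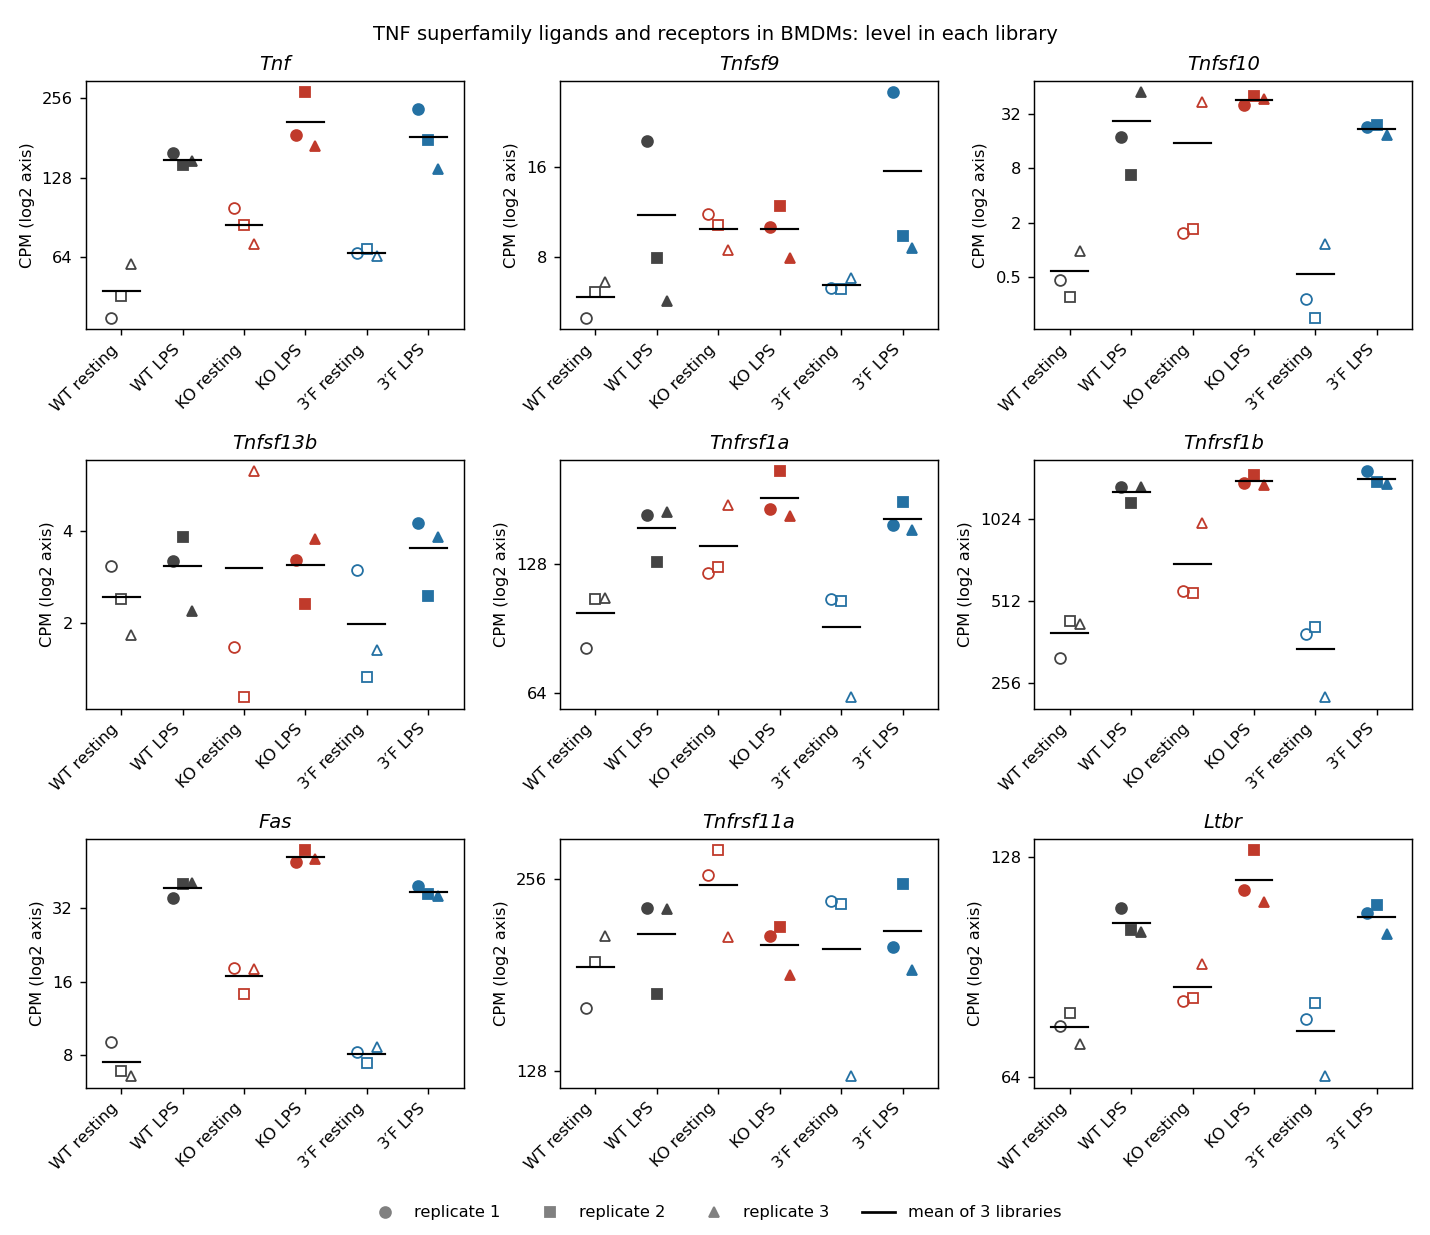
Level of each gene in each of the 18 libraries, in CPM on a log2 axis, with open symbols for resting and filled symbols for LPS libraries, 1 symbol shape per replicate and a line at the mean of 3 libraries. Fas in resting KO, between 14.2 and 18.2 CPM, lies above every resting WT and 3′F library and below every LPS library, while for Tnfsf10 resting KO replicate 3, at 43.1 CPM, lies among the LPS libraries.

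The LPS response asks how far each ligand and receptor moves in macrophages with normal miR-146a, without it, and with its altered 3′ part. In WT 6 of the 9 genes rose and none fell, namely the ligands Tnf and Tnfsf10 and the receptors Tnfrsf1a, Tnfrsf1b, Fas and Ltbr. Over all genes tested 28.5% were called in WT and 16.3% were called higher. In 3′F the same 6 genes and Tnfsf9 rose, against 31.2% of all genes called and 17.2% called higher. In KO 4 genes rose (Tnf, Tnfrsf1b, Fas and Ltbr), against 26.9% called and 14.3% called higher, and 7 genes rose there once resting KO replicate 3 was left out, when 20.2% of all genes were called higher. The 4 genes stayed called without it, with log2 rises of 1.19 for Tnf, 1.36 for Tnfrsf1b, 1.67 for Fas and 0.54 for Ltbr (adjusted p = 0.000705, 7.42e-05, 3.33e-07 and 0.000881). The median log2 fold change of the 9 genes was 0.92 in WT, 0.49 in KO and 1.29 in 3′F, and over all genes 0.02, 0.02 and −0.01.

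Tnf, the founding ligand of the family (ENSMUSG00000024401, chromosome 17, 35199381 to 35202007 of GRCm38, minus strand), stood at 37.4, 45.2 and 60.2 CPM in the resting WT libraries and at 159, 143 and 148 CPM with LPS. KO libraries had 97.9, 84.3 and 71.5 CPM at rest and 185, 269.9 and 169 CPM with LPS. In 3′F the values were 66.3, 68.5 and 64.4 CPM at rest and 233, 178 and 138 CPM with LPS. Every LPS library was above every resting library of any genotype, and resting WT was the lowest group. The log2 rise with LPS was 1.66 ± 0.21 (SE) in WT, 1.30 ± 0.21 in KO and 1.46 ± 0.21 in 3′F, with adjusted p of 3.05e-05, 0.000223 and 8.57e-05, and it stayed called in every alternative tried.

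Tnfsf10, the death ligand TRAIL (ENSMUSG00000039304, chromosome 3, 27317028 to 27342427 of GRCm38, plus strand), was close to absent at rest: resting WT libraries held 7, 4 and 10 counts and resting 3′F libraries 5, 3 and 5 counts. With LPS it reached 17.9, 6.83 and 55.9 CPM in WT and 23.2, 24.0 and 18.6 CPM in 3′F. KO libraries had 1.55, 1.68 and 43.1 CPM at rest and 40.1, 50.3 and 47.4 CPM with LPS. WT with LPS thus ran over a wide range, and resting KO replicate 3 was alone among resting libraries in reaching the level of LPS libraries. The log2 rise was 5.59 ± 1.26 in WT (adjusted p = 0.00341) and 5.97 ± 1.40 in 3′F (adjusted p = 0.00428), both measured against a few counts. In KO the fitted rise was 1.64 ± 0.88 (adjusted p = 0.184). Without resting KO replicate 3 it was 4.83 (adjusted p = 6.74e-05), and with the mouse as a block it was 2.98 (adjusted p = 0.0207).

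Tnfsf9, the ligand of the costimulatory receptor Tnfrsf9 (ENSMUSG00000035678, chromosome 17, 57105325 to 57107757 of GRCm38, plus strand), had 4.99, 6.10 and 6.58 CPM in resting WT and 19.5, 7.92 and 5.72 CPM with LPS. In 3′F it had 6.32, 6.26 and 6.79 CPM at rest and 28.5, 9.42 and 8.59 CPM with LPS, and in KO between 7.92 and 11.9 CPM over the 6 libraries. In WT and 3′F replicate 1 was far above the other LPS replicates. The rise in 3′F was 1.29 ± 0.45 on the log2 scale (adjusted p = 0.0379). It was 0.50 without 3′F LPS replicate 1 (adjusted p = 0.36) and 1.14 with the mouse as a block (adjusted p = 0.0627), and the call was also lost when any 1 of the resting 3′F libraries was left out. In WT the value was 0.92 ± 0.44 (adjusted p = 0.136) and in KO −0.01 ± 0.43 (adjusted p = 0.993).

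Tnfsf13b, the B cell survival factor BAFF (ENSMUSG00000031497, chromosome 8, 10006467 to 10039072 of GRCm38, plus strand), stayed between 1.15 and 6.29 CPM in the 18 libraries and was not called by edgeR in any of the 11 comparisons, while limma-voom with quality weights called its LPS response in KO and 3′F (1.07 and 0.92, adjusted p = 0.0172 and 0.023). Its highest value was in resting KO replicate 3. Without that library its log2 rise with LPS in KO was 1.13 (adjusted p = 0.0384), against 0.11 ± 0.49 with it (adjusted p = 0.893).

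Tnfrsf1b, the TNF receptor without a death domain (ENSMUSG00000028599, chromosome 4, 145213463 to 145246870 of GRCm38, minus strand), was the most abundant of the 9 genes per kb. It rose from 318, 434 and 423 CPM in resting WT to 1344, 1179 and 1347 CPM with LPS, and from 387, 411 and 228 to 1538, 1411 and 1377 CPM in 3′F. KO went from 558, 550.5 and 991 CPM to 1398, 1496 and 1371 CPM, so that the groups with LPS lay close together while resting KO was higher than resting WT and 3′F. The log2 rise was 1.72 ± 0.23 in WT, 1.02 ± 0.23 in KO and 2.08 ± 0.23 in 3′F (adjusted p = 5.16e-05, 0.00305 and 8.11e-06). Tnfrsf1a, the receptor with a death domain (ENSMUSG00000030341, chromosome 6, 125349362 to 125362484 of GRCm38, plus strand), had smaller values. It went from 81.7, 106 and 107 CPM to 166, 129.7 and 169.7 CPM in WT, a log2 rise of 0.66 ± 0.20 (adjusted p = 0.0185), and by 0.83 ± 0.20 in 3′F (adjusted p = 0.0044). In WT the call was lost without resting replicate 1, LPS replicate 1 or LPS replicate 3, with values of 0.54, 0.61 and 0.59 and adjusted p of 0.0796, 0.0649 and 0.0728. In KO Tnfrsf1a showed 0.37 ± 0.19 (adjusted p = 0.17), and 0.56 without resting KO replicate 3 (adjusted p = 0.0362).

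Fas is the death receptor for Fas ligand (ENSMUSG00000024778, chromosome 19, 34290666 to 34327772 of GRCm38, plus strand), and its replicates lay close together in each group. It went from 9.07, 6.93 and 6.58 CPM in resting WT to 35.3, 40.1 and 40.6 CPM with LPS. Resting KO had 18.2, 14.2 and 18.1 CPM and KO with LPS 49.6, 55.0 and 50.6 CPM. In 3′F the values were 8.24, 7.42 and 8.66 CPM at rest and 39.5, 36.4 and 35.9 CPM with LPS, overlapping those of WT in each state. The log2 rise was 2.35 ± 0.14 in WT, 1.62 ± 0.13 in KO and 2.21 ± 0.14 in 3′F (adjusted p = 8.91e-09, 1.98e-07 and 1.91e-08). Ltbr, the lymphotoxin β receptor (ENSMUSG00000030339, chromosome 6, 125306571 to 125313885 of GRCm38, minus strand), rose in each genotype, by 0.48 ± 0.10 in WT, 0.49 ± 0.10 in KO and 0.52 ± 0.10 in 3′F (adjusted p = 0.00205, 0.00154 and 0.00107). Tnfrsf11a, the receptor RANK through which RANK ligand drives osteoclast formation (ENSMUSG00000026321, chromosome 1, 105780718 to 105847981 of GRCm38, plus strand), ran from 126 to 284 CPM over all libraries with groups that overlapped, and its log2 values of 0.17 ± 0.21 in WT, −0.31 ± 0.21 in KO and 0.09 ± 0.21 in 3′F were not called by edgeR. limma-voom with quality weights called the fall in KO (−0.42, adjusted p = 0.00975).

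**Figure D2:**
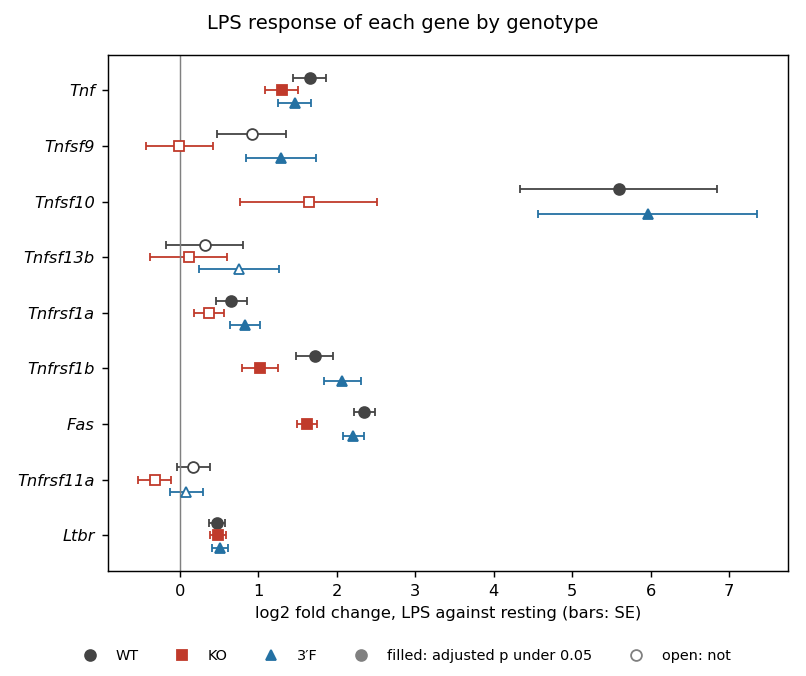
Log2 fold change of each gene with LPS against resting in WT, KO and 3′F, with bars for the SE from the fit of all 18 libraries, filled symbols where the adjusted p was under 0.05. Fas is at 2.35, 1.62 and 2.21 in WT, KO and 3′F, Ltbr near 0.5 in each, and the wide bars of Tnfsf10 come with few counts at rest.

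Resting KO was compared with resting WT to see what loss of miR-146a changes before LPS. Tnf, Tnfsf10, Tnfrsf1b and Fas were higher in KO, 4 of 9 genes, and none was lower. Over all genes 9.4% were called and 5.12% were called higher in KO. In 7 of the 9 genes each of the 3 KO libraries lay above each WT library, against 13.7% of all genes, and in 8 of 9 once replicate 3 was left out, against 22.3%. The exceptions were Tnfsf13b and Tnfrsf11a with all 3 KO libraries, and Tnfsf13b alone without replicate 3. Of the 3 genes with a seed match 1, Tnfsf10, was called higher, and of the 6 without one 3 were. Leaving out resting KO replicate 3 left 2 calls, Tnf and Fas, with 3.61% of all genes called higher. Fitting the 6 compared libraries alone left only Fas, with 396 of all genes called.

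Fas was higher in resting KO by 1.15 ± 0.14 on the log2 scale, or 2.22-fold (adjusted p = 0.000186), and this call held in every alternative tried, with 1.10 without replicate 3 (adjusted p = 0.000746). Replicates 1 to 3 of resting KO stood at 2.42, 1.89 and 2.40 times the resting WT mean, so that replicate 3 was no higher than replicate 1. The resting KO mean of Fas amounted to 43.5% of the mean of WT with LPS, against 19.4% for resting WT.

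Tnf was higher in resting KO by 0.83 ± 0.21 (1.78-fold, adjusted p = 0.0193), with replicates at 2.06, 1.77 and 1.5 times the resting WT mean. Replicate 3, high in interferon-response genes, had the least Tnf of the 3, and without it the difference was 0.94 (adjusted p = 0.0173). The call was lost without resting WT replicate 1, resting WT replicate 2 or resting KO replicate 1, at log2 values of 0.68, 0.80 and 0.71 (adjusted p = 0.0941, 0.0805 and 0.0665).

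The Tnfsf10 and Tnfrsf1b differences leaned on replicate 3. For Tnfsf10 the 3 resting KO libraries were at 2.68, 2.92 and 74.9 times the resting WT mean, and the log2 difference went from 4.73 ± 1.28 (adjusted p = 0.0297) to 1.55 without replicate 3 (adjusted p = 0.428). For Tnfrsf1b they were at 1.43, 1.41 and 2.53 times that mean, and the difference went from 0.84 ± 0.23 (adjusted p = 0.0291) to 0.50 (adjusted p = 0.134). Both calls were also lost without any 1 of the resting WT libraries. Tnfrsf1a, Tnfsf9 and Ltbr had no overlap between resting KO and WT but were not called, at 0.52 ± 0.20, 0.77 ± 0.45 and 0.18 ± 0.10 (adjusted p = 0.11, 0.324 and 0.292). Tnfrsf11a, with the most seed matches, showed 0.43 ± 0.21 (adjusted p = 0.233), called by limma-voom with quality weights (0.44, adjusted p = 0.0264), and Tnfsf13b 0.22 ± 0.50 (adjusted p = 0.852), which was −0.80 without replicate 3 (adjusted p = 0.28).

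**Figure D3:**
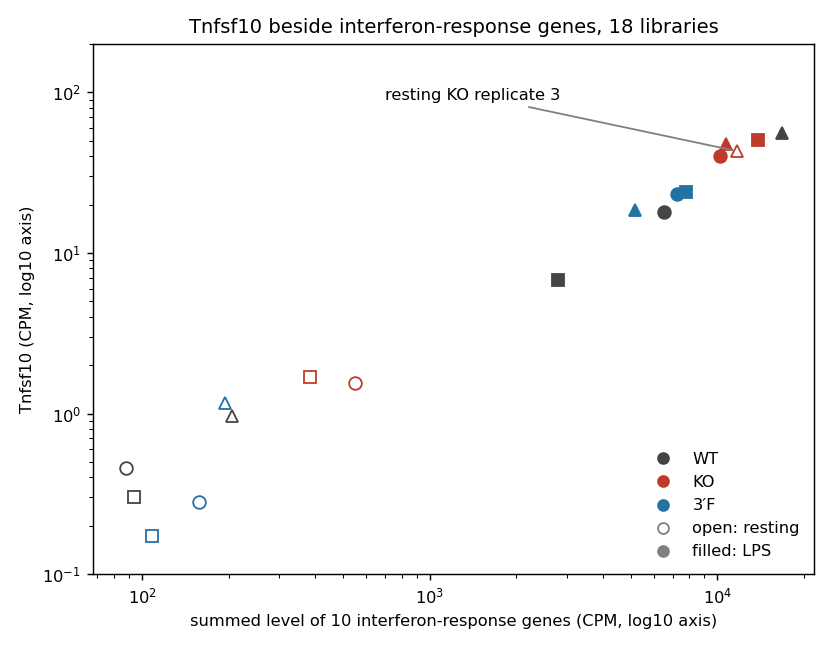
Tnfsf10 level (CPM, log10 axis) against the summed level of 10 interferon-response genes (CPM, log10 axis) in the 18 libraries, coloured by genotype, open for resting and filled for LPS. Resting KO replicate 3, at 43.1 CPM of Tnfsf10 and 11700 CPM of the interferon-response genes, sits with the LPS libraries, and resting KO replicates 1 and 2 sit above the resting WT and 3′F libraries on both axes.

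Across the 18 libraries the log2 level of Tnfsf10 went with the summed interferon-response genes, with a Pearson r of 0.987, a description over libraries that differ mainly in LPS. Of all genes tested, the 3 most like Tnfsf10 in log2 CPM were Ms4a4c (r = 0.991), Mx1 (0.991) and Ifit2 (0.990). Those most like Tnf were Nfkbie (0.978), Nfkbia (0.968) and Ehd1 (0.966), of which the first 2 encode inhibitors that hold NF-κB in the cytoplasm. Those most like Fas were Orai2 (0.984), Sod2 (0.983) and Icam1 (0.983).

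The same resting KO libraries were set against resting 3′F, in which the seed is kept. Tnfsf10, Tnfrsf1a, Tnfrsf1b and Fas were higher in KO, against 12.9% of all genes called and 6.79% called higher, and 7 of 9 genes had no overlap between the groups, against 15.8% of all genes (8 of 9 against 24.4% without resting KO replicate 3). Fitting the 6 compared libraries alone left none of these calls (Fas 1.05, Tnfrsf1b 1.03, Tnfsf10 5.34 and Tnfrsf1a 0.62, adjusted p = 0.0886, 0.194, 0.205 and 0.283), and 16 of all genes were called in that fit against 1464. Without resting KO replicate 3 the fit of all libraries called 2 of the 9, against 4.4% of all genes called higher. Fas differed by 1.07 ± 0.14 (adjusted p = 0.000494), and by 1.02 without resting KO replicate 3 (adjusted p = 0.00101). Tnfrsf1b differed by 1.03 ± 0.23 (adjusted p = 0.0104), and by 0.70 without it (adjusted p = 0.0376). Tnfsf10 and Tnfrsf1a differed by 5.38 ± 1.43 and 0.62 ± 0.20 (adjusted p = 0.0236 and 0.0469), and both calls were lost without resting KO replicate 3 (2.21 and 0.43, adjusted p = 0.211 and 0.161) and without resting 3′F replicate 3 (5.92 and 0.42, adjusted p = 0.0519 and 0.146). Tnfrsf1a was also lost without resting KO replicate 2 (0.70, adjusted p = 0.0502), and Tnfsf10 without resting 3′F replicate 1 or 2 (5.19 and 4.91, adjusted p = 0.0598 and 0.0699). Resting 3′F replicate 3, the library with the fewest counts, had the lowest Tnfrsf1a and Tnfrsf1b of all libraries, at 62.5 and 228 CPM. Tnf showed 0.35 ± 0.21 (adjusted p = 0.256). The KO comparisons share their KO libraries, so they are not separate evidence of one another.

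The same genotypes were compared after LPS. None of the 9 genes was called between KO and WT by edgeR, against 4.79% of all genes. An unadjusted p under 0.05 was found for 2 of the 9, against 2041 of 11357 genes tested. DESeq2 called 1 of the 9 and 983 of all genes, and limma-voom with quality weights called 2 and 1777. Tnf, Tnfrsf1b, Fas and Ltbr had all 3 KO libraries above all 3 WT libraries, 4 of 9 genes against 16.9% of all genes. Fas stood at 51.7 ± 2.90 CPM in KO and 38.7 ± 2.93 CPM in WT (SD, n = 3 each), a log2 difference of 0.42 ± 0.12 (adjusted p = 0.0613). DESeq2, limma-voom with quality weights and a fit of the 6 compared libraries each called it, with adjusted p of 0.0142, 0.00233 and 0.0234. The fit of the compared libraries called 1031 of all genes, against 544 in the edgeR fit of all libraries. Tnf differed by 0.48 ± 0.20 (adjusted p = 0.224) and Tnfsf10 by 0.78 ± 0.84 (adjusted p = 0.702). Tnfrsf1b, the highest per kb, differed by 0.14 ± 0.22 (adjusted p = 0.815).

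Against 3′F with LPS, KO was higher in Fas by 0.47 ± 0.12 (adjusted p = 0.0428), the only one of the 9 that edgeR called, against 3.88% of all genes. That call was lost when any 1 of the 6 compared libraries was left out, with adjusted p from 0.086 to 0.17, while its log2 value stayed between 0.43 and 0.52. In 3 of the 9 genes (Tnfsf10, Fas and Ltbr) each KO library was above each 3′F library, against 19.4% of all genes. For Tnfsf10 the LPS levels were 40.1 to 50.3 CPM in KO and 18.6 to 24.0 CPM in 3′F, a log2 difference of 1.06 ± 0.85 (adjusted p = 0.609), which limma-voom with quality weights (0.98, adjusted p = 0.0468) and the fit of the compared libraries alone (1.02, adjusted p = 0.000622) called. Over all genes these settings called 1842 and 1661, against 441 in the edgeR fit of all libraries.

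No difference between 3′F and WT was called for the 9 genes in either state. At rest edgeR called 0% of all genes, and DESeq2 and limma-voom called none of the 9. Of the 9 genes 1, Tnf, had an unadjusted p under 0.05, against 557 of 11357 genes tested. Tnf was higher in 3′F by 0.48 ± 0.21 (adjusted p = 0.843) with 3 of 3 libraries above the WT range, against 3.28% of all genes that were higher without overlap. With LPS 0.00881% of all genes were called, and none of the 9 had an unadjusted p under 0.05 or was called by DESeq2 or limma-voom. The log2 differences with LPS ran from −0.28 (Tnfsf10) to 0.50 (Tnfsf9) with SE from 0.10 to 0.85, the largest for Tnfsf10. For Fas they were 0.09 ± 0.14 at rest and −0.05 ± 0.12 with LPS, and for Tnfrsf1b −0.19 ± 0.23 and 0.16 ± 0.22. With LPS each 3′F library lay above each WT library for Tnfrsf1b, 1 of the 9 genes. The share of all genes without overlap is not given for this comparison, so nothing is read from that count.

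**Figure D4:**
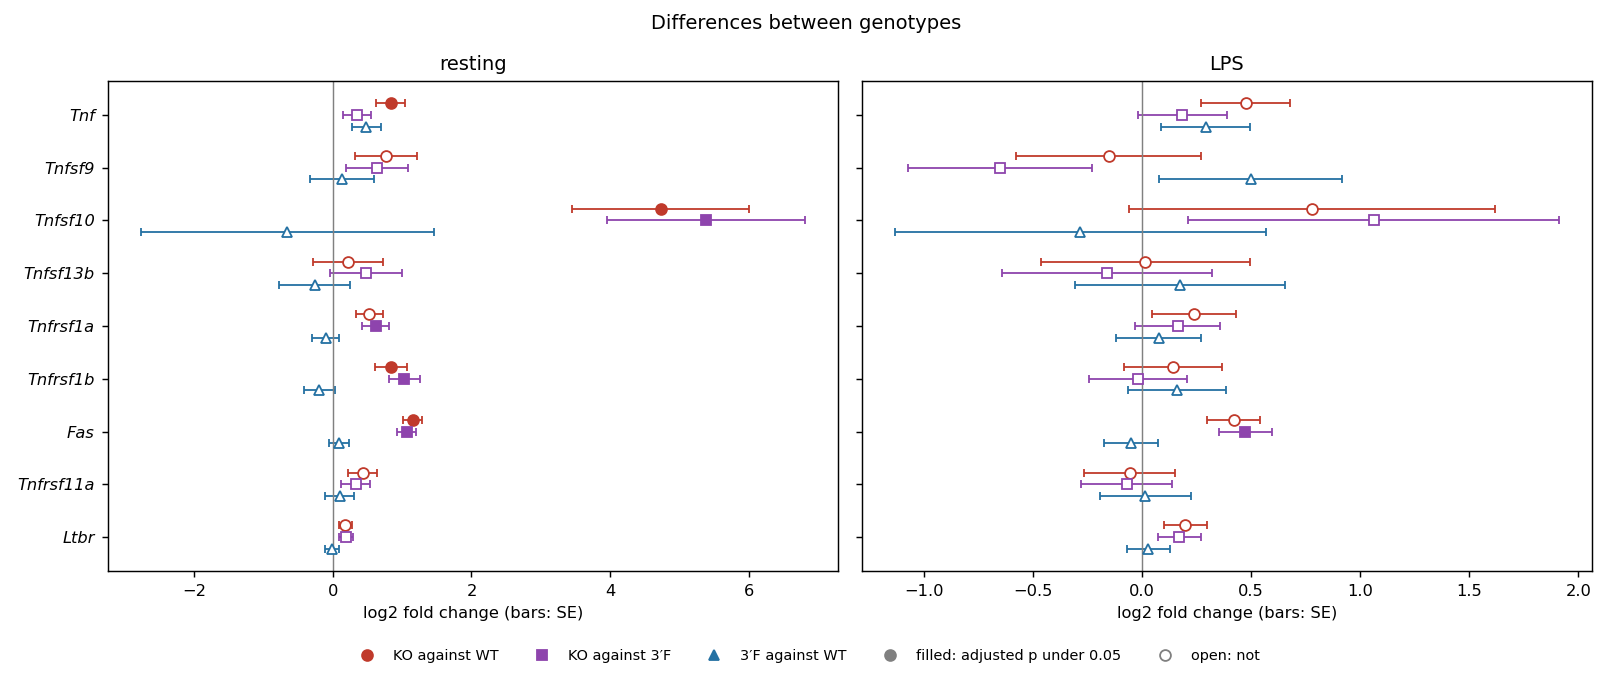
Log2 differences between genotypes for each gene, resting on the left and LPS on the right (the axes differ in range), with bars for the SE and filled symbols where the adjusted p was under 0.05. Fas in KO lies at 1.15 against WT and 1.07 against 3′F at rest, and at 0.42 and 0.47 with LPS, while 3′F against WT has no filled symbol.

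Whether the LPS response itself differs was tested as an interaction. edgeR called none of the 9 genes for KO against WT, where 0.00881% of all genes were called. An unadjusted p under 0.05 was found for 3 of the 9, against 560 of 11357 genes tested. DESeq2 called none of the 9 and 23 of all genes, and limma-voom with quality weights called 1 and 57. The response of Fas was lower in KO by −0.73 ± 0.18 (unadjusted p = 0.000968, adjusted p = 0.507), with paired log2 responses by mouse of 1.95, 2.52 and 2.61 in WT and 1.44, 1.95 and 1.48 in KO. limma-voom with quality weights gave −0.80 for it (adjusted p = 0.0416). Of the 9 genes, 8 had a smaller fitted response in KO, and the median difference was −0.49, against −0.02 over all genes. Without resting KO replicate 3 these were 7 of 9 and −0.47, against 0 over all genes, and Fas showed −0.68 (adjusted p = 0.395). Tnfsf10 and Tnfrsf1b showed −3.95 ± 1.58 and −0.70 ± 0.32 (adjusted p = 0.863 and 0.974), and without resting KO replicate 3 they showed −0.77 and −0.36. For 3′F against WT edgeR called 0% of all genes, and none of the 9 had an unadjusted p under 0.05 or was called by DESeq2 or limma-voom.

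Of 36 other ligands and receptors of the family 35 have a row and 16 passed the filter on low counts. Of 4 other ligands tested, 2 rose with LPS in WT, 1 in KO and 2 in 3′F, and none fell. Over all genes 16.3%, 14.3% and 17.2% were called higher. In KO 2 rose without resting KO replicate 3, against 20.2% of all genes. Tnfsf4 rose in WT and 3′F (4.15 ± 0.88 and 3.15 ± 0.91, adjusted p = 0.00222 and 0.0151). Its average log2 CPM was under 1, so it lies outside the rule for naming. Tnfsf15, the ligand TL1A, rose in each genotype, by 3.01 ± 0.34, 2.03 ± 0.29 and 3.31 ± 0.36 in WT, KO and 3′F (adjusted p = 1.08e-05, 8.33e-05 and 6.18e-06). Resting KO had more of it than resting WT, at 2.05 ± 0.72 against 0.58 ± 0.13 CPM (SD, n = 3 each), by 1.76 ± 0.37 (adjusted p = 0.00823), and by 1.51 without resting KO replicate 3 (adjusted p = 0.0259). Of 12 other receptors tested, 4 rose and 2 fell with LPS in WT, 4 rose and 5 fell in KO, and 4 rose and 2 fell in 3′F, where 28.5%, 26.9% and 31.2% of all genes were called. In KO 4 rose and 4 fell of 13 tested without resting KO replicate 3, where 4040 of 11493 genes were called. Tnfrsf9, the receptor of Tnfsf9, rose the most of the 12 in each genotype. Its values were 5.62 ± 1.03, 3.51 ± 0.70 and 4.86 ± 0.90 in WT, KO and 3′F (adjusted p = 0.000748, 0.00145 and 0.00079). Its average log2 CPM was also under 1, outside the rule for naming. Cd40, the receptor through which T cells license antigen-presenting cells, rose by 2.86 ± 0.48 in WT (adjusted p = 0.000384), from 11.5 to 19.1 CPM at rest to 66.3 to 151 CPM. Relt and Tnfrsf14, the receptor HVEM, rose by 1.64 ± 0.18 and 1.42 ± 0.23 in WT (adjusted p = 6.55e-06 and 0.000316). Tnfrsf12a, the receptor of TWEAK, fell in WT, KO and 3′F (−0.99 ± 0.32, −1.14 ± 0.33 and −1.71 ± 0.33, adjusted p = 0.0294, 0.0168 and 0.00097). Tnfrsf26 fell too, by −0.68 ± 0.17 in WT (adjusted p = 0.0068). After LPS 2 of the 12 were called lower in KO than in WT, against 4.79% of all genes called. They were Tnfrsf26 (−0.66 ± 0.17, adjusted p = 0.0403) and Tnfrsf22 (−1.32 ± 0.31, adjusted p = 0.0238), the latter outside the rule for naming. Against 3′F with LPS 1 of the 12, Tnfrsf26, was called lower in KO (−0.79 ± 0.18, adjusted p = 0.019), against 3.88% of all genes called. At rest 1 of the 12, Tnfrsf14, was called higher in KO than in WT (0.99 ± 0.23, adjusted p = 0.0143), against 5.12% of all genes. None was called without resting KO replicate 3 (Tnfrsf14 at 0.77, adjusted p = 0.055), against 3.61% of all genes called higher.

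Adaptors, kinases and death effectors below the receptors were a list of 30 genes, all tested. With LPS 11 rose in WT, 8 in KO and 11 in 3′F, and none fell, while 16.3%, 14.3% and 17.2% of all genes were called higher. Without resting KO replicate 3 the number in KO was 14, against 20.2% of all genes. The median log2 value of the 30 was 0.33 in WT, 0.22 in KO and 0.33 in 3′F, and over all genes 0.02, 0.02 and −0.01. Traf1, an NF-κB-induced adaptor of Tnfrsf1b, rose the most in WT, by 2.97 ± 0.27, followed by Mlkl, the effector of necroptosis, by 2.30 ± 0.58, Cflar, an inhibitor of caspase-8, by 1.53 ± 0.15, and Birc3, a ubiquitin ligase at the TNF receptor, by 1.46 ± 0.12 (adjusted p = 9.43e-07, 0.0069, 2.2e-06 and 4.01e-07). At rest 4 of the 30 were higher in KO than in WT and none lower, against 5.12% of all genes called higher: Traf1 (1.15 ± 0.27, adjusted p = 0.0141), Birc3 (0.90 ± 0.12, adjusted p = 0.000698), Tank (0.51 ± 0.13, adjusted p = 0.0188) and Traf2 (0.48 ± 0.12, adjusted p = 0.0228). Birc3 had 112, 98.5 and 81.9 CPM in resting KO and 50.3, 46.1 and 60.2 CPM in resting WT. Leaving out resting KO replicate 3 gave 3 higher (Birc3 by 1.02, Traf2 by 0.48 and Traf3 by 0.47, adjusted p = 9.55e-05, 0.0451 and 0.0472). It also gave 1 lower, the necroptosis kinase Ripk3 (−0.82, adjusted p = 0.0357). In that fit 3.61% of all genes were called higher, and 808 of 11493 were called in either direction. Traf1 and Tank were no longer called. Traf3 and Ripk3 were named after their values were seen. Mlkl stood at 18.3 and 18.1 CPM in resting KO replicates 1 and 2 and at 143 CPM in replicate 3, and was not called. After LPS 2 of the 30, Birc3 and Tank, were higher in KO than in WT (0.65 ± 0.12 and 0.53 ± 0.13, adjusted p = 0.00503 and 0.024), against 4.79% of all genes called. The same 2 were higher in KO than in 3′F (0.52 ± 0.12 and 0.48 ± 0.13, adjusted p = 0.0215 and 0.0418), against 3.88% of all genes called. None of the 30 was called by edgeR between 3′F and WT in either state.

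Genes that release the ligands from the membrane were 8, of which 7 were tested. In each genotype 3 rose and 1 fell with LPS, and the same numbers rose and fell in KO without resting KO replicate 3. Of all genes 28.5%, 26.9% and 31.2% were called in WT, KO and 3′F, and 4040 of 11493 in KO without that library. Adam17, the protease that sheds Tnf and its receptors, rose by 1.05 ± 0.11 in WT, Rhbdf2, which brings Adam17 to the surface, by 1.02 ± 0.18, and Sppl2a, an intramembrane protease, by 1.48 ± 0.26, while Adam10 fell by 0.28 ± 0.09 on the log2 scale (adjusted p = 3.33e-06, 0.000577, 0.000467 and 0.0201). Rhbdf2 also differed at rest, with KO above WT by 0.63 ± 0.18 (adjusted p = 0.0381), and by 0.58 without resting KO replicate 3 (adjusted p = 0.091).

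**Figure D5:**
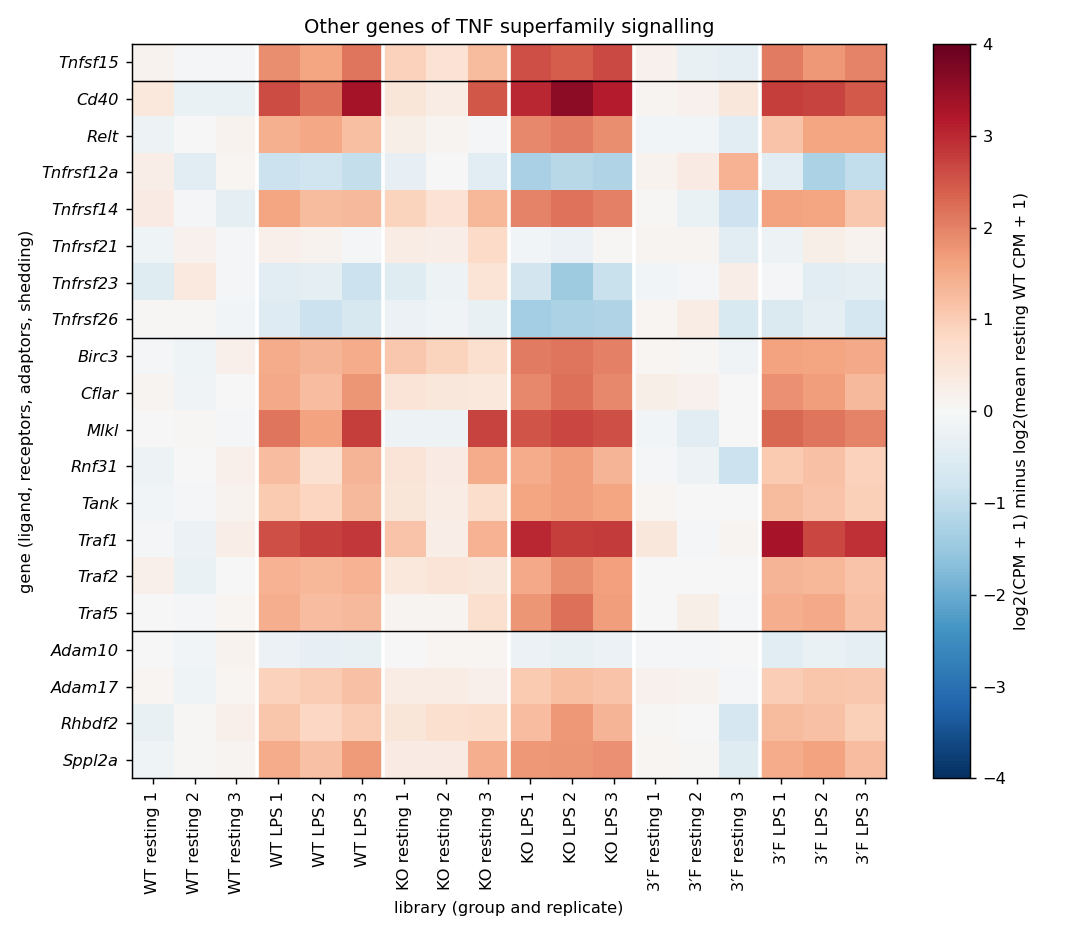
Log2(CPM + 1) of the 20 other genes named by the rule, minus the log2 of the resting WT mean plus 1, in each of the 18 libraries; colours run from −4 to 4 and black lines part ligand, receptors, adaptors and shedding genes. Mlkl and Cd40 in resting KO are high in replicate 3 alone, while Birc3 is above resting WT in each of the 3 replicates.

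Promoters were searched for motifs bound by NF-κB, by interferon regulatory factors and by STAT dimers, as these regulate many LPS-responsive genes. RefSeq windows from 250 bases before to 50 after the start site (GRCm38.p6) were found for 8 of the 9 genes, Tnfsf9 being the one without. Tnfsf13b has 2 windows, so that 9 windows were searched. On either strand, GGGNNTTTC (a κB motif) is in none of the 9 windows and in 4.4% of 32851 promoters. GAAANNGAA (bound by interferon regulatory factors, ISRE) is in 2 of the 9 windows and in 8.6% of promoters. TTCNNNGAA (bound by STAT dimers, GAS) is in 3 of the 9 windows and in 8.3%. The ISRE match of Tnfsf13b lies in 1 of its 2 windows. The matches are shown with the motif in capitals, read in the direction of the gene, and no match overlaps another. Fas and Tnfrsf1b, which rose with LPS in each genotype, hold GAS matches 93 and 181 bases before the start site, and Tnfrsf1b holds an ISRE match on the opposite strand.
Fas GAS, chr19:34290556-34290584: tcaaagcgatTTCTGGGAAgacctgaata
Tnfrsf1b GAS, chr4:145247033-145247061: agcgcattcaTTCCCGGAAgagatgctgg
Tnfrsf1b ISRE, chr4:145246861-145246889: gcctgagggtTTCGCTTTCagtcaccagc
Tnfrsf1a GAS, chr6:125349473-125349497: gcttccTTCCGTGAAattgacaaca
Tnfsf13b ISRE, chr8:10006607-10006635: tacaaaaactGAAAGTGAAatgcggaagg
The Tnfrsf1b windows lie on the minus strand and the others on the plus strand. Tnfsf10, Tnf, Ltbr and Tnfrsf11a hold no match to these letters in this window, and of these Tnf and Ltbr also rose with LPS in each genotype.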

How the data were processed

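Directional libraries were prepared from total RNA of 18 BMDM cultures after removal of ribosomal RNA. The authors trimmed reads with cutadapt 1.8.3, aligned them to mm10 with HISAT2 2.1.0 and counted them by strand per gene with featureCounts 1.5.3, and the deposited table holds these raw counts, whole numbers per protein-coding gene. No column was left unmapped to a sample, and no batch is named in the labels.

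In R 4.3.3, the filter filterByExpr retained 11357 of 21734 genes, counts were scaled by TMM, and genes were fitted with the quasi-likelihood test of edgeR 4.0.16 in one model of 18 libraries with a coefficient per group. The 11 comparisons were tested on both sides, given Benjamini-Hochberg adjusted p-values across every gene in the fit, and called at an adjusted p under 0.05. An SE is the log2 fold change divided by the square root of F. The script was tested on simulated data. An exact permutation of 3 against 3 cannot go below a p of 0.1, so tests of single genes rest on the fit. Members and lists were chosen with earlier results of these data known, and the interferon list after the values were seen. From each of 4 lists (other ligands, other receptors, adaptors, shedding genes) the rule names up to 4 called genes per direction and comparison with an average log2 CPM of at least 1, ranked by size.

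The labels give 3 mice per genotype and number resting and LPS cultures alike, so the same number was read as the same mouse. Deviations from the group means correlated at 0.04 to 0.30 over these 9 pairs, above 0.1 in 4. Alternatives were DESeq2 1.42.0, RLE size factors, no filter, limma-voom (limma 3.58.1) with quality weights, the compared groups alone, a replicate block and leaving out each library. Depth was 4071084 to 19818043 counts, and counting error is smallest in the deepest libraries. Seed and motif matches came from the GENCODE annotation of GRCm38 and from RefSeq (GRCm38.p6), builds of the same assembly as mm10.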

Additional observations from a re-analysis of the deposited data

How the results depend on the processing

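No called value of the 9 genes changed direction under any alternative. Of 1295 values of single genes under alternatives 1160 kept their direction and side of the threshold, 46 lost the call, 17 gained one, and 72 values not called changed sign. The count of genes called moved by over 1.5 times as follows. For the LPS response in KO it was 4, but 8 with limma-voom and quality weights, which called 6073 of all genes against 3059. It was 4 to 7 when a library was left out, the highest without resting KO replicate 3. For resting KO against WT it was 4, but 1 with the compared groups alone and 1 to 4 when a library was left out (1 without resting WT replicate 1 or 2, and 2 without resting WT replicate 3 or resting KO replicate 3). For resting KO against 3′F it was 4, but 2 with limma-voom, 0 with the compared groups alone and 2 to 4 when a library was left out (2 without resting KO replicate 3 or resting 3′F replicate 3). With LPS, KO against WT gave 0, but 1 with DESeq2, 2 with limma-voom and 1 with the compared groups alone. KO against 3′F gave 1, but 0 without the filter, 2 with limma-voom, 2 with the compared groups alone, 0 with the replicate block and 0 without any 1 library. The interaction of KO with LPS gave 0, and 1 with limma-voom. The cause of these shifts was not tested.

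The replicate block changed 4 of 99 calls: Tnfsf10 in KO and Tnfsf9 in 3′F with LPS, given above, and between genotypes, where the numbers pair no mice, Tnfrsf1a in resting KO against 3′F (0.62, adjusted p = 0.0655) and Fas in KO against 3′F with LPS (0.48, adjusted p = 0.0532). Over all genes, counts called ranged over the alternatives from 392 (without resting WT replicate 2) to 2259 for resting KO against WT (1067 in the edgeR fit), 180 (without KO LPS replicate 2) to 1777 for KO against WT with LPS (544), 16 (compared groups alone) to 2916 for resting KO against 3′F (1464), 142 (without KO LPS replicate 2) to 1842 for KO against 3′F with LPS (441) and 0 to 57 for the KO interaction (1), and reached 5218, 6073 and 5478 for the LPS responses of WT, KO and 3′F (3240, 3059 and 3546). The highest of each of these counts over all genes came from limma-voom with quality weights. Depth limits Tnfsf10, with 3 to 10 counts in resting WT and 3′F libraries.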
